A study of Mus musculus with 16 samples.

Results

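The genes described here are the aldehyde, alcohol, ketone and steroid dehydrogenases of the mouse kidney. They were chosen by name: every gene whose symbol begins with Aldh, Akr, Adh or Hsd followed by a digit, with Aldh1l1, Hsd11b2, Hsd17b4 and pseudogenes left out. The rule gave 63 of the 52338 genes in the table, with 20 Aldh, 17 Akr, 6 Adh and 20 Hsd genes. The rule itself uses no measured value, but members and lists were chosen with earlier results of these data known. All mice were C57BL6 and ate a high-fat diet, and their kidneys were taken on day 15 after treatment. The groups were FAN with time-restricted feeding, FAN with feeding ad libitum, vehicle with time-restricted feeding and vehicle with feeding ad libitum, with 4 libraries each. The labels do not spell out FAN, while the column names of the FAN libraries carry the word folic. RNA came from powdered frozen whole kidney, so all cell types of the organ are mixed.

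These enzymes move hydride between NAD or NADP and a carbonyl or hydroxyl group. Aldehyde dehydrogenases (Aldh) oxidise aldehydes to acids, alcohol dehydrogenases (Adh) convert alcohols and aldehydes, aldo-keto reductases (Akr) reduce sugars, aldehydes and steroids, and hydroxysteroid dehydrogenases (Hsd) switch steroid hormones between active and inactive forms. Many of them are abundant in proximal tubule epithelium, where they serve amino acid breakdown, aldehyde clearance and steroid handling, while Aldh1a2 is known for making retinoic acid in mesenchyme.

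The 16 libraries held 12450812 to 33976660 counts each. The upper limit behind a count of 0 was therefore 0.0883 to 0.241 counts per 1000000 (CPM), by library and before scaling. The share of counts on mitochondrial transcripts was 21.4% to 26.7% in FAN time-restricted, 6.94% to 14.8% in FAN ad libitum, 18.0% to 20.9% in vehicle time-restricted and 17.2% to 22.8% in vehicle ad libitum libraries. The column names carry S numbers, and the libraries with the lowest S numbers were FAN time-restricted 6, FAN ad libitum 6 and 7, vehicle time-restricted 1 and 2 and vehicle ad libitum 1 and 2. What the S numbers record is not stated, and they were treated as an early and a late set. Nothing in the labels says that the 4 libraries of a group came from separate animals, so p-values measure the spread between these samples.

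Akr1c21, Akr1a1 and Adh1 had the highest levels of these transcripts in vehicle ad libitum kidneys. On the CPM per kilobase scale, which allows levels of different genes to be compared, Akr1c21, a hydroxysteroid dehydrogenase, came first with 1034 in vehicle ad libitum kidneys. Akr1a1, which reduces many aldehydes, was next with 707, and Adh1, the classical alcohol and retinol dehydrogenase, followed with 452 CPM per kilobase in the same kidneys. These 3 also led in FAN ad libitum kidneys, with levels of 256, 229 and 133 CPM per kilobase. Akr1c14 was sixth by level in vehicle ad libitum kidneys and 19th in FAN ad libitum kidneys, with 12.3 CPM per kilobase in the FAN and 132 in the vehicle kidneys.

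After FAN 35 of the 52 tested members were called lower under ad libitum feeding, where 28.6% of all genes were, and 21 of 52 under time-restricted feeding, where 19% were. In FAN mice 32 of 52 were called higher with time-restricted feeding, as were 17.9% of all genes. A smaller set was called higher after FAN, 7 under ad libitum and 5 under time-restricted feeding (32.1% and 24.5% of all genes), with the largest change in Aldh1a2. The summed level of all 63 members was 7677 ± 772 CPM in FAN time-restricted, 3188 ± 268 CPM in FAN ad libitum, 11044 ± 756 CPM in vehicle time-restricted and 10596 ± 369 CPM in vehicle ad libitum kidneys (SD, n = 4 each). Of the 63 members, 52 passed the filter on low counts and were tested among 17731 genes. A member that is measured only where it is high passes such a filter more easily, so counts below refer to the 52.

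The 3 stretches of sequence before gene starts given here are shown because they belong to the members with the largest rise and fall after FAN under ad libitum feeding and to the most abundant member, and because each holds a motif that a search for 4 motifs found. The sequences are RefSeq promoter windows on GRCm38.p6, and capitals mark the motif.
Aldh1a2, chr9:71215647-71215715, plus strand: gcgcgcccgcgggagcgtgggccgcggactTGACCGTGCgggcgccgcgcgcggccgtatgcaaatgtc
Akr1c18, chr13:4150801-4150868, minus strand: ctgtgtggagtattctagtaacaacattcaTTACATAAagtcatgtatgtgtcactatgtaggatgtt
Akr1c21, chr13:4574004-4574069, plus strand: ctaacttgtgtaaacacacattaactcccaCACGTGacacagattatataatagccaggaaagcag
The first holds the core of an antioxidant response element (TGACNNNGC), the second a D-box read on the opposite strand (TTATGTAA) and the third an E-box (CACGTG), the last being a motif that clock factors are known to bind. Windows reach from 250 bases before to 50 after a gene start, were matched for 49 of the 63 members and were searched on both strands. Among all 32851 windows 12.4% held the response element core, 0.938% the D-box and 7.15% the E-box. Among the 49 members 9, 2 and 5 did. A member was counted if any of its windows held the motif, so shares of windows and counts of members are unlike measures. The HNF4 element CAAAGTCCA, searched as well, was in 0.475% of windows and in Hsd3b3 alone among members. The motifs are a description of the letters and carry no statement about binding.

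**Figure D1:**
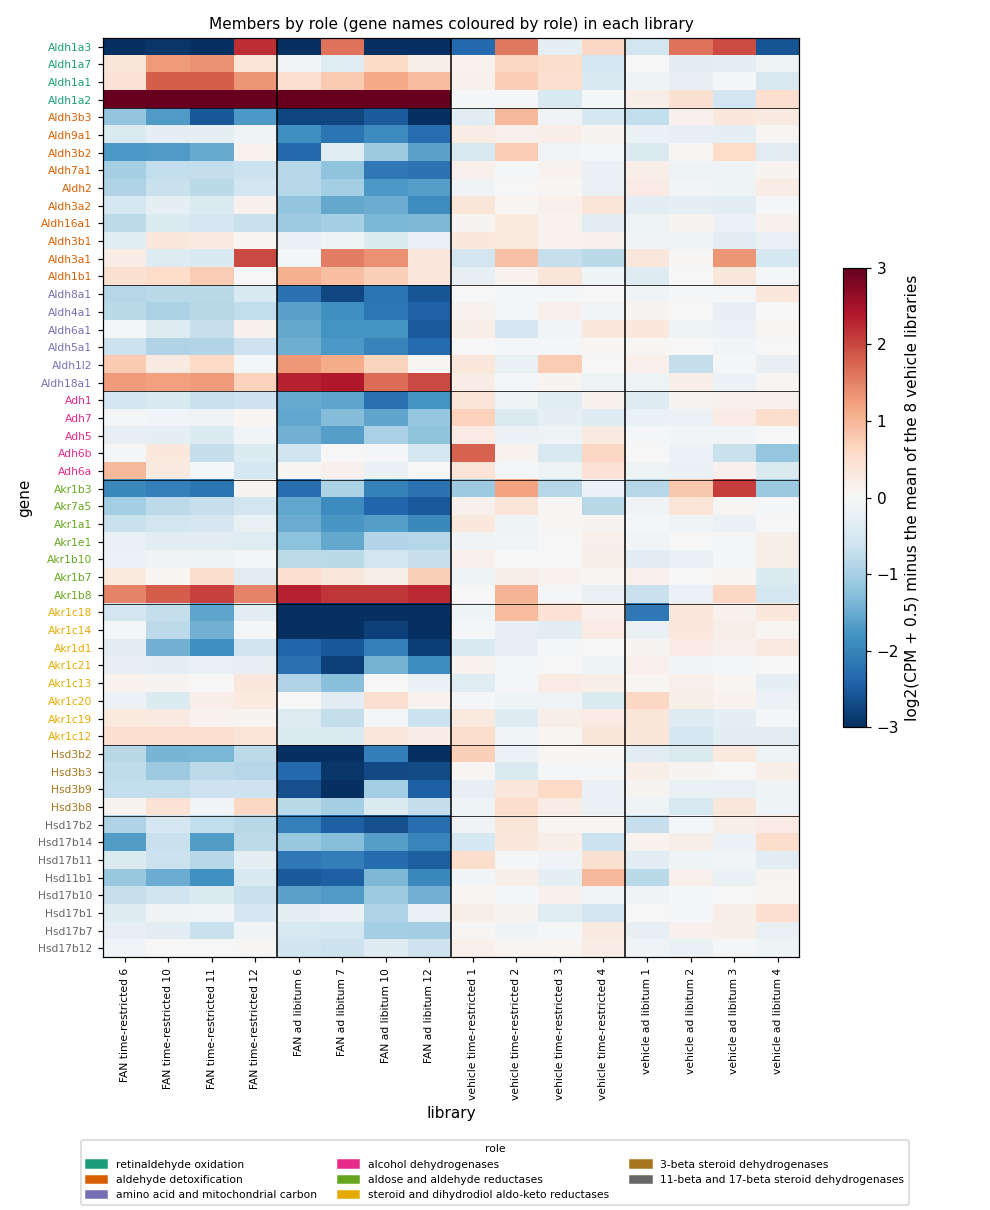
Colour gives log2(CPM + 0.5) of each of the 52 tested members in each of the 16 libraries, minus the mean of the 8 vehicle libraries, with gene names coloured by role. FAN ad libitum libraries are blue for most members and FAN time-restricted libraries are paler, while Aldh1a2, Aldh18a1, Akr1b8 and Aldh1a1 are red in FAN libraries.

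Under ad libitum feeding 35 of the 52 tested members fell after FAN and 7 rose, and 10 did not pass the test. Over all genes tested, 28.6% were called lower, 32.1% higher and 60.7% in either direction by edgeR's quasi-likelihood test at an adjusted p of 0.05. The median log2 change of the members was -1.38, against 0.060 over all genes tested. For 38 of the 52 the FAN and vehicle libraries did not overlap, as for 54.9% of all genes. The 7 higher members were Aldh1a2, Akr1b8, Aldh18a1, Aldh1l2, Aldh1a1, Aldh1b1 and Akr1b7. Scaling by library size alone moved the all-gene median to 0.76 and the share of calls that were higher to 83.9%, against 52.8% as reported here, and gave 29 members lower and 11 higher with a member median of -0.68. Without FAN ad libitum 6 and 7, a setting chosen after the data were seen, 33 members were lower and 4 higher.

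Under time-restricted feeding 21 of the 52 tested members fell after FAN and 5 rose, and 26 did not pass. The background was 19% lower, 24.5% higher and 43.5% in either direction. The median log2 change was -0.39 over the members and 0.052 over all genes tested. Libraries of the 2 groups did not overlap for 26 members and for 40.3% of all genes. The 5 higher members were Aldh1a2, Akr1b8, Aldh18a1, Aldh1a1 and Aldh1a7. In the early set alone, with 1 FAN time-restricted library whose spread is taken from the other groups, 13 were lower and 2 higher. The early set of the ad libitum comparison, 2 libraries a group, had 33 lower and 6 higher.

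In FAN mice, time-restricted feeding went with higher levels of 32 of the 52 tested members and lower levels of 2, Aldh1a2 and Aldh18a1. Over all genes 17.9% were called higher, 13.9% lower and 31.8% in either direction. The median log2 change, time-restricted over ad libitum, was 0.76 over the members and -0.024 over all genes. Groups did not overlap for 32 members and for 28% of all genes. Library size scaling gave 21 higher and 6 lower with a member median of 0.11 and an all-gene median of -0.67. Under that scaling 8.61% of all calls were higher, against 56.4% as reported here. The early set alone, with 1 FAN time-restricted library, had 24 higher and 2 lower.

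In vehicle mice no member passed in either direction, and 0% of all genes were called by edgeR. Unadjusted p was under 0.05 for 6 of the 52 members and for 1143 of the 17731 genes, and neither DESeq2 nor limma voom called a member. Libraries of the feeding groups did not overlap for 5 members and for 4.85% of all genes. The median log2 change was 0.075 over the members.

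The test of the difference itself, the interaction of FAN and feeding, passed for 21 members in which the feeding difference was more positive in FAN than in vehicle mice and for 1, Aldh18a1, in which it was more negative. Over all genes 7.76% were called positive, 1.4% negative and 9.16% in either direction. With library size scaling 12 were positive and 5 negative, the all-gene median being -0.57 in place of 0.021. Among those that no longer passed were Adh1, Adh5, Akr1a1, Akr7a5, Aldh3a2, Aldh4a1, Aldh5a1 and Hsd17b10. Akr1b8, Aldh1a2 and Aldh1l2 were among those that then passed as negative. The share of positive among all interaction calls was then 7.60% in place of 84.7%. The early set alone gave 14 positive and 0 negative. These comparisons share libraries: the FAN ad libitum libraries enter the ad libitum contrast, the feeding contrast in FAN mice and the interaction.

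Most markers of proximal tubule moved the same way. The summed level of 12 such markers was 6248 ± 778 CPM in FAN time-restricted, 2399 ± 815 CPM in FAN ad libitum, 12585 ± 795 CPM in vehicle time-restricted and 12047 ± 583 CPM in vehicle ad libitum kidneys (SD, n = 4 each). Of the 12, 10 fell after FAN under either regimen and 10 rose with time-restricted feeding in FAN mice by the same edgeR test. The shares over all genes were 28.6% lower under ad libitum feeding, 19% lower under time-restricted feeding and 17.9% higher in FAN mice. Slc5a2 and Slc5a12 passed none of these contrasts. The log2 changes of Slc5a12 after FAN were 0.048 under time-restricted and 0.091 under ad libitum feeding. Fibroblast markers, 5 in all, summed to 626 ± 175 CPM in FAN time-restricted and 1105 ± 281 CPM in FAN ad libitum kidneys. In vehicle kidneys they summed to 74.3 ± 24.5 CPM under time-restricted and 89.7 ± 29.1 CPM under ad libitum feeding. Col3a1 was the largest of them in FAN kidneys, with means of 399 CPM under time-restricted and 742 CPM under ad libitum feeding. The 6 macrophage markers summed to 363 to 726 CPM in FAN time-restricted, 867 to 946 CPM in FAN ad libitum, 92.4 to 134 CPM in vehicle time-restricted and 112 to 196 CPM in vehicle ad libitum libraries. Falls were not particular to proximal tubule. After FAN under ad libitum feeding 2 of 4 principal cell and 3 of 4 intercalated cell markers fell. So did 1 of 3 distal convoluted tubule and 0 of 3 thick ascending limb markers. With time-restricted feeding in FAN mice 2 intercalated cell, 1 distal convoluted tubule and 0 principal cell markers rose. In bulk tissue, fewer cells of a type and less RNA per cell cannot be told apart, and the part of cell composition in the results below was not tested.

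**Figure D2:**
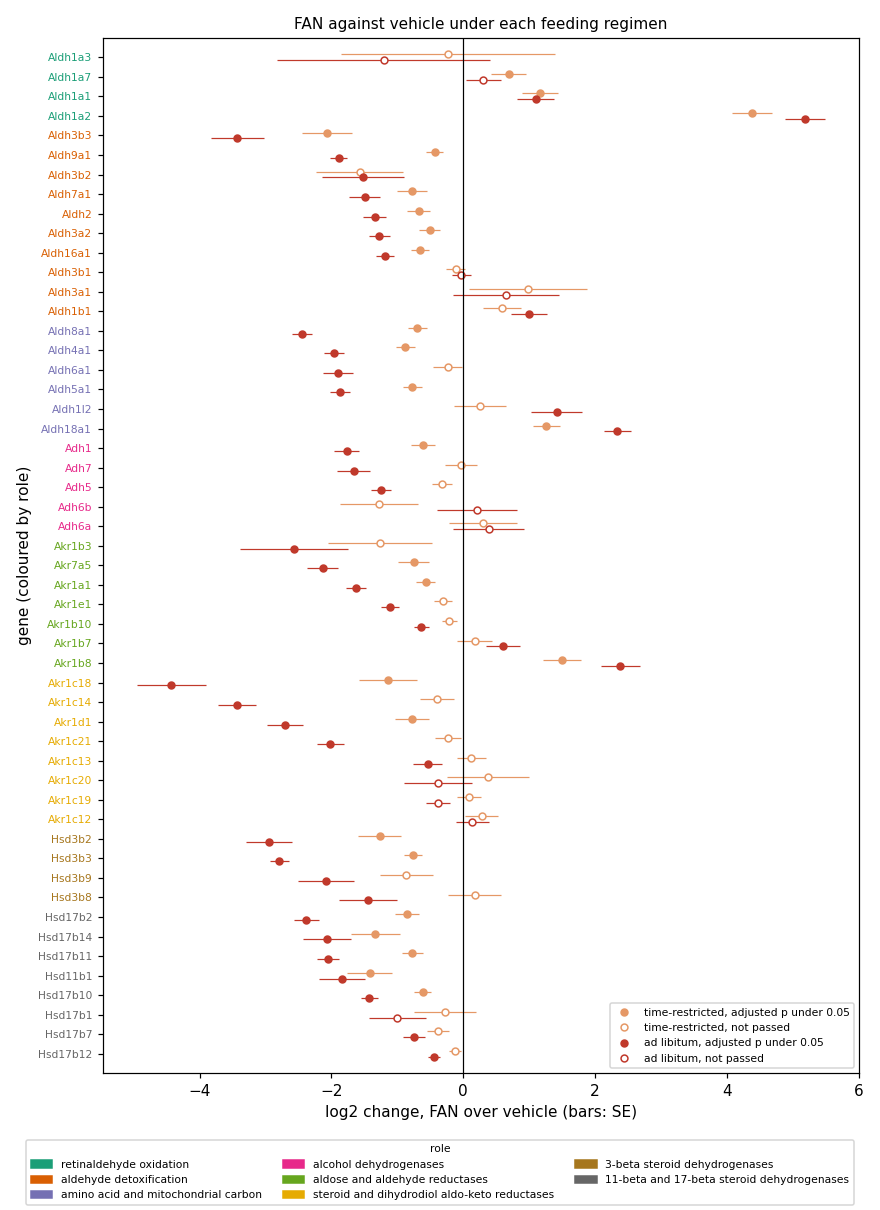
Points give the log2 change, FAN over vehicle, of the 52 tested members with standard errors, for time-restricted and ad libitum feeding, and filled points passed an adjusted p of 0.05. Most points lie left of 0, with Aldh1a2 at 4.38 and 5.19 far to the right.

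The 4 Aldh1a genes were placed in 1 role group, retinaldehyde oxidation, and the activity of each enzyme was not measured. After FAN 2 of them rose under ad libitum feeding, where 32.1% of all genes did. Under time-restricted feeding 3 rose, where 24.5% of all genes did, and none was called lower under either regimen. Aldh1a2 (chromosome 9, 71215789 to 71296243, plus strand, GRCm38), the main retinoic acid enzyme of embryonic mesenchyme, rose most of all members. Aldh1a2 had 34, 25.5, 44.8 and 18.1 CPM in FAN time-restricted kidneys and 73.5, 85.6, 54.6 and 77.3 CPM in FAN ad libitum kidneys. In vehicle kidneys Aldh1a2 had 1.57, 1.63, 1.08 and 1.63 CPM under time-restricted and 1.98, 2.45, 0.959 and 2.59 CPM under ad libitum feeding. Every FAN library was above every vehicle library, and the FAN time-restricted libraries all lay below the FAN ad libitum ones. The log2 change, FAN over vehicle, was 4.38 ± 0.30 (SE, adjusted p = 1.32e-08) under time-restricted feeding. Under ad libitum feeding Aldh1a2 rose by 5.19 ± 0.30 (SE, adjusted p = 3.49e-10) on the log2 scale. With time-restricted feeding in FAN mice it was lower, with a log2 change of -1.24 ± 0.24 (SE, adjusted p = 9.82e-04), and the interaction, -0.80 ± 0.41 (SE, adjusted p = 0.239), did not pass. The fibroblast marker sums above moved in the same order, and 4 of the 5 markers were called lower with time-restricted feeding in FAN mice. Dcn was not, with means of 115 CPM in FAN time-restricted and 82.3 CPM in FAN ad libitum kidneys. The part of fibroblasts in the values of Aldh1a2 was not tested.

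Aldh1a1, a cytosolic retinaldehyde dehydrogenase, also rose. Aldh1a1 had 18.8, 50.1, 50.1 and 35.2 CPM in FAN time-restricted kidneys and 19.6, 24, 31.1 and 26.9 CPM in FAN ad libitum kidneys. In vehicle kidneys Aldh1a1 had 15.1, 23.3, 19.8 and 10.021 CPM under time-restricted and 12.7, 11.6, 13.2 and 9.71 CPM under ad libitum feeding. The ad libitum groups did not overlap, whereas under time-restricted feeding FAN time-restricted 6 lay within the vehicle range. Its log2 changes, FAN over vehicle, were 1.17 ± 0.27 (SE, adjusted p = 0.00234) under time-restricted and 1.10 ± 0.27 (SE, adjusted p = 0.00219) under ad libitum feeding, and in the early set, where FAN time-restricted 6 is the lone library of its group, the time-restricted change was -0.10. The feeding difference in FAN mice, 0.60 ± 0.27 (SE, adjusted p = 0.0942), did not pass, and passed without FAN time-restricted 6. Aldh1a7, its close paralogue with 7.49% of its 50-base windows shared with Aldh1a1, is therefore less certain. Aldh1a7 had 28.9, 55.2, 58 and 29.5 CPM in FAN time-restricted kidneys and 21.1, 17.3, 33.2 and 25.9 CPM in FAN ad libitum kidneys. In vehicle kidneys Aldh1a7 had 24, 34.3, 32.5 and 15.4 CPM under time-restricted and 22.3, 17.5, 18.5 and 20.5 CPM under ad libitum feeding. FAN and vehicle groups overlapped under both regimens. The time-restricted change after FAN was 0.69 ± 0.27 (SE, adjusted p = 0.0444), which was lost in 10 of the 16 fits that left out 1 library, those without FAN time-restricted 10 or 11, FAN ad libitum 6 or 12, vehicle time-restricted 1 or 4, or any of the vehicle ad libitum libraries, and was -0.083 in the early set alone. Time-restricted feeding in FAN mice gave 0.82 ± 0.27 (SE, adjusted p = 0.025), lost without FAN time-restricted 10 or 11 or FAN ad libitum 6 or 7.

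Aldh1a3, the third retinaldehyde dehydrogenase, varied more within groups than between them. Aldh1a3 had 1.75, 2.89, 2.08 and 118 CPM in FAN time-restricted kidneys and 2.41, 78.5, 2.33 and 1.93 CPM in FAN ad libitum kidneys. In vehicle kidneys Aldh1a3 had 4.57, 75.8, 20.5 and 38.9 CPM under time-restricted and 16.8, 78.1, 99.1 and 3.72 CPM under ad libitum feeding. One library in each FAN group stood far above the other 3, and the vehicle libraries spread from 3.72 to 99.1 CPM. No contrast passed, with log2 changes of -0.22 ± 1.62 (SE, adjusted p = 0.925) under time-restricted and -1.21 ± 1.61 (SE, adjusted p = 0.543) under ad libitum feeding. Akr1b3, aldose reductase, which makes sorbitol in the renal medulla, was high in the same libraries. Akr1b3 had 63.9, 58.8, 53 and 258 CPM in FAN time-restricted kidneys and 49.7, 126, 59.3 and 52.4 CPM in FAN ad libitum kidneys. In vehicle kidneys Akr1b3 had 113, 567, 135 and 215 CPM under time-restricted and 134, 425, 1033 and 113 CPM under ad libitum feeding. Its fall after FAN under ad libitum feeding was -2.57 ± 0.82 (SE, adjusted p = 0.0152) and was lost without vehicle ad libitum 3 (-1.64), and the time-restricted change, -1.25 ± 0.79 (SE, adjusted p = 0.22), did not pass. In Akr1b3, 9.48% of windows are shared, mostly with Gm6644.

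Genes of the inner medulla and urothelium, chosen after these values were seen, were high in those libraries as well. Aqp4, a water channel of medullary collecting duct, had 20.5, 8.18, 3.42 and 155 CPM in FAN time-restricted and 10.3, 67.9, 11.4 and 8.12 CPM in FAN ad libitum kidneys. In vehicle kidneys Aqp4 had 29.6, 172, 88.6 and 109.8 CPM under time-restricted and 165, 269, 255 and 100.7 CPM under ad libitum feeding. Upk1b, a uroplakin of urothelium, had 9.53, 2.97, 1.06 and 26.8 CPM in FAN time-restricted and 2.01, 18.9, 12.1 and 6.19 CPM in FAN ad libitum kidneys. In vehicle kidneys Upk1b had 6.14, 29.8, 11.3 and 8.72 CPM under time-restricted and 9.64, 15.3, 36.7 and 5.55 CPM under ad libitum feeding. FAN time-restricted 12 and FAN ad libitum 7 were the highest of their groups for all 4 genes. Whether the sampled part of the kidney accounts for this was not tested.

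**Figure D3:**
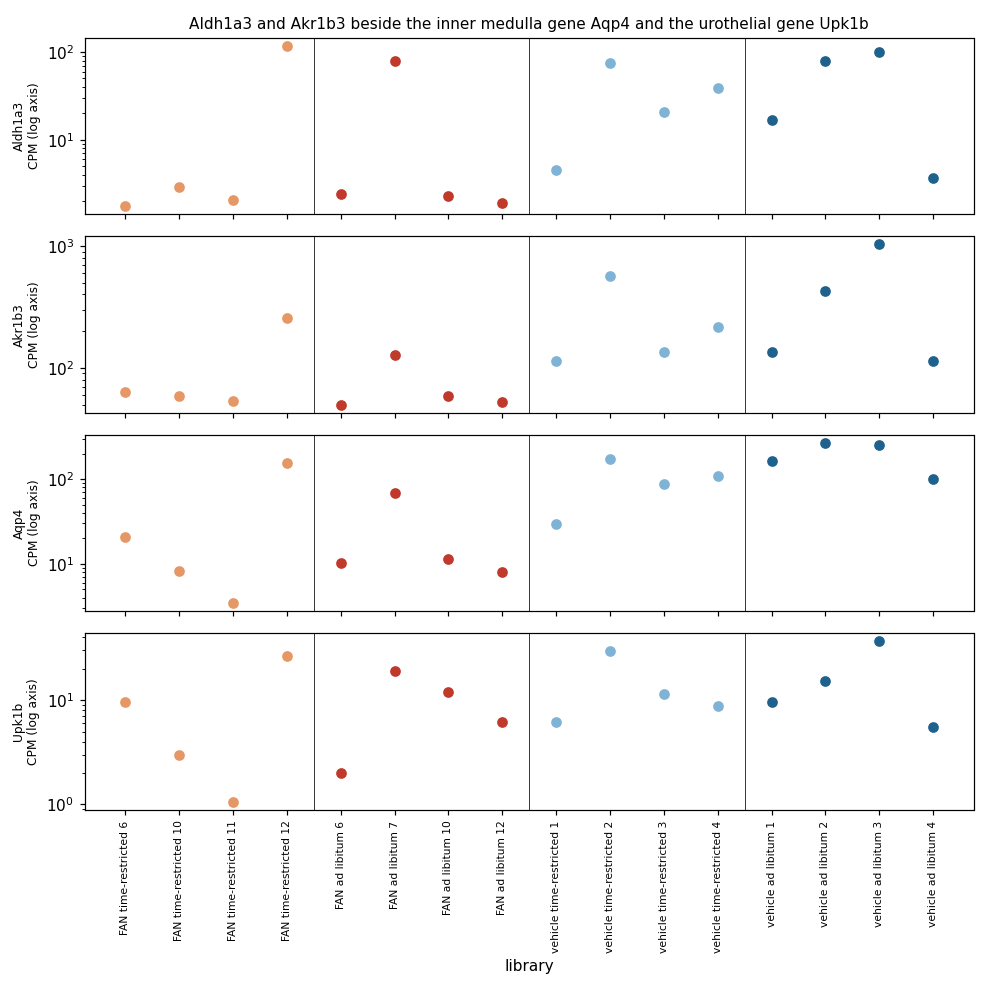
Each point is the CPM of 1 library on a log axis, for Aldh1a3, Akr1b3, Aqp4 and Upk1b, with groups separated by lines. FAN time-restricted 12 and FAN ad libitum 7 stand above the other libraries of their groups in all 4 panels.

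Aldehyde detoxification enzymes fell after FAN, 7 of 10 tested under ad libitum and 6 of 10 under time-restricted feeding. Over all genes 28.6% and 19% were called lower. Under ad libitum feeding 1 of the 10 was higher, against 32.1% of all genes. Aldh2, the mitochondrial acetaldehyde dehydrogenase, was lower in every FAN library than in any vehicle library of its regimen. Aldh2 had 254, 298, 274 and 322 CPM in FAN time-restricted kidneys and 263, 235, 145 and 151 CPM in FAN ad libitum kidneys. In vehicle kidneys Aldh2 had 442, 473, 498 and 419 CPM under time-restricted and 569.8, 454, 435 and 554 CPM under ad libitum feeding. The log2 changes were -0.67 ± 0.17 (SE, adjusted p = 0.00449) under time-restricted and -1.34 ± 0.18 (SE, adjusted p = 3.29e-06) under ad libitum feeding. Feeding in FAN mice gave 0.53 ± 0.17 (SE, adjusted p = 0.0265) with overlapping groups, lost without FAN time-restricted 10 or 12 or FAN ad libitum 10 or 12, and was -0.13 under library size scaling. The interaction, not passed as reported, passed without FAN ad libitum 6. Aldh9a1, which oxidises a carnitine precursor, was lower after FAN as well. Aldh9a1 had 391, 433, 437 and 485 CPM in FAN time-restricted kidneys and 146, 115, 139.9 and 107 CPM in FAN ad libitum kidneys. In vehicle kidneys Aldh9a1 had 617, 583, 605 and 552 CPM under time-restricted and 457, 446, 437 and 542 CPM under ad libitum feeding. Both feeding regimens separated completely within FAN mice and within vehicle mice. The log2 changes of Aldh9a1 after FAN were -0.43 ± 0.13 (SE, adjusted p = 0.00986) under time-restricted and -1.89 ± 0.13 (SE, adjusted p = 1.46e-09) under ad libitum feeding, and it differed between regimens in FAN mice by 1.78 ± 0.13 (SE, adjusted p = 1.06e-07). Its interaction was 1.46 ± 0.18 (SE, adjusted p = 7.55e-05).

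Aldh3a2, the fatty aldehyde dehydrogenase, and Aldh7a1, which acts in lysine breakdown, were also called lower after FAN under both regimens and higher with time-restricted feeding in FAN mice. Aldh3a2 had 175, 207, 187 and 275 CPM in FAN time-restricted kidneys and 111, 87.2, 90.1 and 69.3 CPM in FAN ad libitum kidneys. In vehicle kidneys Aldh3a2 had 328, 262, 283 and 329 CPM under time-restricted and 205, 205, 204 and 247 CPM under ad libitum feeding. FAN and vehicle libraries overlapped under time-restricted feeding and not under ad libitum feeding. Aldh3a2 changed by -0.51 ± 0.16 (SE, adjusted p = 0.0136) under time-restricted feeding, lost without FAN time-restricted 6, and by -1.27 ± 0.16 (SE, adjusted p = 1.80e-06) under ad libitum feeding. Its feeding difference in FAN mice was 1.24 ± 0.16 (SE, adjusted p = 1.52e-05), and its interaction, 0.76 ± 0.22 (SE, adjusted p = 0.0372), was lost in 10 of the 16 fits that left out 1 library. Those fits were without FAN time-restricted 10 or 12, FAN ad libitum 7 or 12, vehicle time-restricted 2 or 3, or any vehicle ad libitum library. Aldh7a1 had 151, 180.5, 185 and 193 CPM in FAN time-restricted kidneys and 168, 131, 67.4 and 64.7 CPM in FAN ad libitum kidneys. In vehicle kidneys Aldh7a1 had 339, 289, 323 and 265 CPM under time-restricted and 345, 273, 277 and 317 CPM under ad libitum feeding. FAN libraries lay below vehicle libraries under both regimens, and the FAN groups overlapped each other. The changes of Aldh7a1 were -0.78 ± 0.23 (SE, adjusted p = 0.0116) and -1.49 ± 0.24 (SE, adjusted p = 2.68e-05) for FAN under time-restricted and ad libitum feeding. Its feeding difference in FAN mice, 0.72 ± 0.23 (SE, adjusted p = 0.0241), was lost without FAN time-restricted 11 or 12 or FAN ad libitum 10 or 12 and was -0.012 in the early set. The interaction of Aldh7a1 passed without FAN ad libitum 6.

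Aldh3b3, a lipid aldehyde dehydrogenase, had the largest fall of this role group. Aldh3b3 had 3.31, 2.14, 0.982 and 2.14 CPM in FAN time-restricted kidneys and 0.775, 0.8, 1.03 and 0.567 CPM in FAN ad libitum kidneys. In vehicle kidneys Aldh3b3 had 6.39, 16.4, 7.47 and 5.46 CPM under time-restricted and 4.7, 9.01, 10.3 and 9.97 CPM under ad libitum feeding. Its FAN libraries were all below the vehicle libraries of their regimen. The log2 changes were -2.07 ± 0.38 (SE, adjusted p = 2.94e-04) under time-restricted and -3.43 ± 0.40 (SE, adjusted p = 9.16e-07) under ad libitum feeding. The feeding difference in FAN mice, 1.45 ± 0.40 (SE, adjusted p = 0.0112), was lost without FAN time-restricted 6, and the interaction passed without FAN time-restricted 11 or vehicle time-restricted 2. In Aldh3b3, 12.8% of windows are shared, mostly with Aldh3b2. Aldh1b1, a mitochondrial acetaldehyde dehydrogenase, was the member of this group that rose, by 0.998 ± 0.28 (SE, adjusted p = 0.00472) under ad libitum feeding, and it did not pass under time-restricted feeding. Aldh16a1 fell, with log2 changes of -0.65 ± 0.14 (SE, adjusted p = 9.87e-04) and -1.18 ± 0.14 (SE, adjusted p = 8.57e-07) under time-restricted and ad libitum feeding.

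Of 6 enzymes of amino acid and mitochondrial carbon, 4 fell and 2 rose after FAN under ad libitum feeding. Under time-restricted feeding 3 fell, 1 rose and 2 did not pass. Of all genes, 28.6% fell and 32.1% rose under ad libitum feeding, and 19% fell and 24.5% rose under time-restricted feeding. The share that rose under ad libitum feeding, 33.3%, lay near that of all genes. The 2 that rose under ad libitum feeding were Aldh18a1, which makes the proline precursor from glutamate, and Aldh1l2, a mitochondrial folate enzyme. Aldh18a1 had 7.04, 6.78, 7.03 and 4.46 CPM in FAN time-restricted kidneys and 14.8, 16, 9.42 and 11.7 CPM in FAN ad libitum kidneys. In vehicle kidneys Aldh18a1 had 3.09, 2.45, 2.79 and 2.28 CPM under time-restricted and 2.29, 3.05, 2.25 and 2.65 CPM under ad libitum feeding. All FAN libraries exceeded all vehicle libraries, and the FAN time-restricted libraries all lay below the FAN ad libitum ones. Aldh18a1 rose by 1.26 ± 0.21 (SE, adjusted p = 8.87e-05) under time-restricted and by 2.34 ± 0.21 (SE, adjusted p = 2.52e-08) under ad libitum feeding. It was lower with time-restricted feeding in FAN mice, -1.02 ± 0.19 (SE, adjusted p = 6.78e-04), and its interaction, -1.08 ± 0.29 (SE, adjusted p = 0.0225), was lost without FAN ad libitum 7 or vehicle time-restricted 1. Aldh1l2 had 2.22, 1.4, 1.89 and 1.02 CPM in FAN time-restricted kidneys and 3.37, 2.89, 2.01 and 1.13 CPM in FAN ad libitum kidneys. In vehicle kidneys Aldh1l2 had 1.48, 0.851, 2.16 and 1.06 CPM under time-restricted and 1.24, 0.456, 1.01 and 0.82 CPM under ad libitum feeding. The groups of Aldh1l2 overlapped in every comparison, at 0.456 to 3.37 CPM. Its change under ad libitum feeding was 1.42 ± 0.39 (SE, adjusted p = 0.00396), which fell short without FAN ad libitum 6 and 7, and under time-restricted feeding 0.26 ± 0.39 (SE, adjusted p = 0.621).

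Among the breakdown enzymes, Aldh8a1, which acts in tryptophan breakdown, stood out for its interaction. Aldh8a1 had 298, 310.4, 310.3 and 393 CPM in FAN time-restricted kidneys and 114, 81, 118 and 90.2 CPM in FAN ad libitum kidneys. In vehicle kidneys Aldh8a1 had 545, 516, 522 and 547 CPM under time-restricted and 500.5, 516, 521 and 672 CPM under ad libitum feeding. FAN ad libitum libraries lay below all others and FAN time-restricted libraries below the vehicle ones. The log2 changes after FAN were -0.70 ± 0.14 (SE, adjusted p = 7.61e-04) under time-restricted and -2.45 ± 0.15 (SE, adjusted p = 4.76e-10) under ad libitum feeding. Time-restricted over ad libitum in FAN mice was 1.70 ± 0.15 (SE, adjusted p = 3.34e-07) and the interaction 1.75 ± 0.20 (SE, adjusted p = 5.52e-05). Aldh4a1, of proline breakdown, has 30.0% of its windows in common with Gm21969, so its values are less certain. Aldh4a1 had 135, 122, 133 and 142 CPM in FAN time-restricted kidneys and 77, 65.8, 52.5 and 43.8 CPM in FAN ad libitum kidneys. In vehicle kidneys Aldh4a1 had 257, 234, 265 and 223 CPM under time-restricted and 250.3, 240.2, 200.4 and 237 CPM under ad libitum feeding. Its groups were ordered as those of Aldh8a1, without overlap between FAN and vehicle. Aldh4a1 fell, with log2 changes of -0.88 ± 0.15 (SE, adjusted p = 1.03e-04) and -1.96 ± 0.15 (SE, adjusted p = 4.70e-09) under time-restricted and ad libitum feeding, with an interaction of 1.08 ± 0.20 (SE, adjusted p = 0.00244).

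Aldh5a1, of GABA breakdown, repeated that order. Aldh5a1 had 34.9, 29.6, 29.7 and 35.7 CPM in FAN time-restricted kidneys and 19.9, 16.4, 13.4 and 10.7 CPM in FAN ad libitum kidneys. In vehicle kidneys Aldh5a1 had 55.8, 54.2, 54.2 and 57.5 CPM under time-restricted and 56.6, 56, 51.9 and 56.1 CPM under ad libitum feeding. Neither the FAN groups nor the FAN and vehicle groups overlapped. Aldh5a1 fell, with log2 changes of -0.77 ± 0.14 (SE, adjusted p = 3.04e-04) under time-restricted and -1.87 ± 0.15 (SE, adjusted p = 6.73e-09) under ad libitum feeding, and its interaction was 1.09 ± 0.20 (SE, adjusted p = 0.00201). Aldh6a1, of valine breakdown, differed from it under time-restricted feeding. Aldh6a1 had 543, 424, 341 and 603 CPM in FAN time-restricted kidneys and 192, 159, 159.9 and 97.6 CPM in FAN ad libitum kidneys. In vehicle kidneys Aldh6a1 had 637, 391, 527 and 687 CPM under time-restricted and 691, 503, 489 and 579 CPM under ad libitum feeding. The FAN and vehicle ranges overlapped under time-restricted feeding and were apart under ad libitum feeding. The time-restricted change of Aldh6a1 was -0.23 ± 0.22 (SE, adjusted p = 0.419), the ad libitum change -1.90 ± 0.23 (SE, adjusted p = 1.05e-06) and the interaction 1.66 ± 0.31 (SE, adjusted p = 0.0022).

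Of the alcohol dehydrogenases, 5 were tested. After FAN 3 fell under ad libitum feeding, where 28.6% of all genes did. Under time-restricted feeding 1 fell, which is 20% of the 5 against 19% of all genes. Adh1 had 689.8, 736, 629 and 653 CPM in FAN time-restricted kidneys and 350.2, 333, 214 and 288 CPM in FAN ad libitum kidneys. In vehicle kidneys Adh1 had 1333, 908, 775 and 1106 CPM under time-restricted and 772, 1058, 1101 and 1104 CPM under ad libitum feeding. FAN libraries of Adh1 lay below the vehicle ones under both regimens, with 214 to 350 CPM in FAN ad libitum kidneys. Adh1 changed by -0.61 ± 0.18 (SE, adjusted p = 0.012) under time-restricted feeding, lost without vehicle time-restricted 1, and by -1.77 ± 0.19 (SE, adjusted p = 2.42e-07) under ad libitum feeding. Its feeding difference in FAN mice was 1.19 ± 0.18 (SE, adjusted p = 1.05e-04) and its interaction 1.16 ± 0.26 (SE, adjusted p = 0.00768). Adh5 had 251, 243, 224 and 280.3 CPM in FAN time-restricted kidneys and 109, 94.1, 152 and 129 CPM in FAN ad libitum kidneys. In vehicle kidneys Adh5 had 353, 264, 269.6 and 358 CPM under time-restricted and 288, 282, 281 and 298 CPM under ad libitum feeding. Adh5, which clears formaldehyde and nitrosoglutathione, overlapped between FAN and vehicle only under time-restricted feeding. Its changes were -0.32 ± 0.15 (SE, adjusted p = 0.0872) and -1.25 ± 0.15 (SE, adjusted p = 1.03e-06) under time-restricted and ad libitum feeding, with an interaction of 0.93 ± 0.21 (SE, adjusted p = 0.00815).

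Adh7, an alcohol and retinol dehydrogenase, was low in FAN ad libitum kidneys. Adh7 had 8.48, 8.22, 8.06 and 9.11 CPM in FAN time-restricted kidneys and 2.64, 3.2613, 2.56 and 3.58 CPM in FAN ad libitum kidneys. In vehicle kidneys Adh7 had 14.4, 6.31, 7.11 and 6.52 CPM under time-restricted and 7.49, 7.68, 10.5 and 12.7 CPM under ad libitum feeding. FAN ad libitum libraries lay below all others, and the FAN time-restricted libraries lay within the vehicle range. Under time-restricted feeding the change was -0.027 ± 0.24 (SE, adjusted p = 0.938), and under ad libitum feeding -1.66 ± 0.25 (SE, adjusted p = 1.57e-05). The interaction was 1.63 ± 0.35 (SE, adjusted p = 0.00575). The other 2 tested members, Adh6a and Adh6b, averaged at most 1.84 CPM in any group and passed no contrast.

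Of the 7 aldose and aldehyde reductases, 5 fell and 2 rose under ad libitum feeding, where 28.6% of all genes fell and 32.1% rose. Akr1a1 had 1275, 1381, 1434 and 1741 CPM in FAN time-restricted kidneys and 727, 604, 645 and 539 CPM in FAN ad libitum kidneys. In vehicle kidneys Akr1a1 had 2531, 1864, 2108 and 2153 CPM under time-restricted and 2006, 1911, 1784 and 2074 CPM under ad libitum feeding. Akr1a1 was lower in every FAN library than in the vehicle libraries. It fell, with log2 changes of -0.57 ± 0.14 (SE, adjusted p = 0.00385) under time-restricted and -1.63 ± 0.15 (SE, adjusted p = 3.59e-08) under ad libitum feeding, and its interaction was 1.06 ± 0.20 (SE, adjusted p = 0.00271). Akr7a5 had 101.4, 120.0, 128 and 141 CPM in FAN time-restricted kidneys and 69.5, 55.3, 39.4 and 35.9 CPM in FAN ad libitum kidneys. In vehicle kidneys Akr7a5 had 227, 269, 213 and 116 CPM under time-restricted and 192, 276, 212 and 199.3 CPM under ad libitum feeding. Akr7a5, an aldehyde reductase, overlapped with vehicle under time-restricted feeding through vehicle time-restricted 4. Its changes were -0.75 ± 0.23 (SE, adjusted p = 0.0136) under time-restricted feeding, lost without vehicle time-restricted 2, and -2.13 ± 0.24 (SE, adjusted p = 5.37e-07) under ad libitum feeding, with an interaction of 1.38 ± 0.33 (SE, adjusted p = 0.0119).

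Akr1b8, an aldose reductase-like gene, rose after FAN. Akr1b8 had 20.001, 25.3, 30.1 and 19.979 CPM in FAN time-restricted kidneys and 35.6, 32.1, 31.7 and 33.9 CPM in FAN ad libitum kidneys. In vehicle kidneys Akr1b8 had 6.73, 14.4, 6.52 and 5.78 CPM under time-restricted and 4.13, 6.03, 10.8 and 4.54 CPM under ad libitum feeding. Every FAN library was above every vehicle library, and the FAN time-restricted libraries all lay below the FAN ad libitum ones. The log2 changes were 1.496 ± 0.29 (SE, adjusted p = 5.18e-04) under time-restricted and 2.39 ± 0.30 (SE, adjusted p = 2.31e-06) under ad libitum feeding. Its feeding difference in FAN mice, -0.48 ± 0.28 (SE, adjusted p = 0.2), did not pass, and the interaction passed without vehicle ad libitum 3. Akr1b7 rose by 0.61 ± 0.26 (SE, adjusted p = 0.0477) under ad libitum feeding, while Akr1b10 and Akr1e1 fell, with log2 changes of -0.63 ± 0.12 (SE, adjusted p = 1.18e-04) and -1.11 ± 0.14 (SE, adjusted p = 1.35e-06) under the same feeding.

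**Figure D4:**
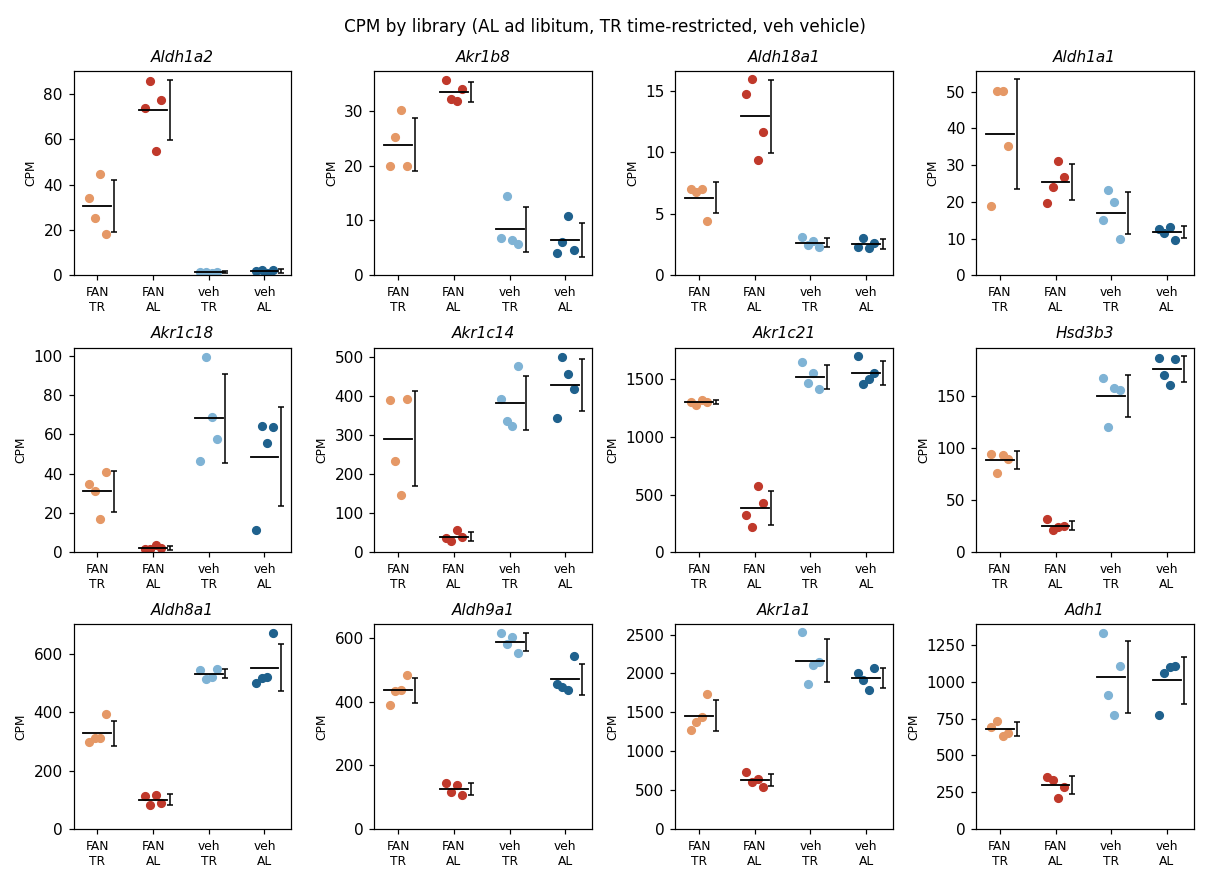
Points are the CPM of single libraries for 12 members in the 4 groups, with lines at the mean and bars of 1 SD. Akr1c18, Akr1c14, Akr1c21 and Hsd3b3 are lowest in FAN ad libitum kidneys and higher in FAN time-restricted ones, while Aldh1a2, Akr1b8 and Aldh18a1 are highest in FAN ad libitum kidneys.

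The steroid and dihydrodiol aldo-keto reductases held the largest fall after FAN under ad libitum feeding, that of Akr1c18, and the 2 largest feeding differences in FAN mice, those of Akr1c18 and Akr1c14. Under time-restricted feeding the largest called fall of any member was that of Aldh3b3. Of 8 tested, 5 fell under ad libitum and 2 under time-restricted feeding, and 6 were higher with time-restricted feeding in FAN mice. The shares over all genes were 28.6%, 19% and 17.9%. The 2 that fell under time-restricted feeding, 25% of the 8, lay near the all-gene share. Akr1c18 (chromosome 13, 4132615 to 4150654, minus strand, GRCm38), which inactivates progesterone, had the largest fall under ad libitum feeding. Akr1c18 had 34.7, 31.3, 16.8 and 41.1 CPM in FAN time-restricted kidneys and 1.7, 1.8, 3.86 and 1.91 CPM in FAN ad libitum kidneys. In vehicle kidneys Akr1c18 had 46.6, 99.2, 69 and 57.5 CPM under time-restricted and 11.3, 64, 55.8 and 63.6 CPM under ad libitum feeding. FAN ad libitum libraries reached at most 3.86 CPM, and vehicle ad libitum 1 lay far below the other 3 of its group. Under ad libitum feeding Akr1c18 changed by -4.43 ± 0.52 (SE, adjusted p = 3.04e-06), and time-restricted over ad libitum feeding in FAN mice was 3.77 ± 0.51 (SE, adjusted p = 6.75e-05), the largest of all 52 members. The interaction was 3.28 ± 0.66 (SE, adjusted p = 0.00545). Under time-restricted feeding the change after FAN was -1.14 ± 0.44 (SE, adjusted p = 0.0487), and it was lost in 12 of the 16 fits that left out 1 library, all but those without FAN time-restricted 12, FAN ad libitum 10, vehicle time-restricted 1 or vehicle ad libitum 1.

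Akr1c14, a 3-alpha hydroxysteroid dehydrogenase, followed it. Akr1c14 had 391, 232, 147 and 391.7 CPM in FAN time-restricted kidneys and 36.3, 27.9, 56.6 and 38.8 CPM in FAN ad libitum kidneys. In vehicle kidneys Akr1c14 had 393, 336, 323 and 477 CPM under time-restricted and 343, 500.1, 456 and 417 CPM under ad libitum feeding. FAN time-restricted libraries spread widely and 2 of them reached the vehicle range, while all FAN ad libitum libraries were below them. The changes after FAN were -0.40 ± 0.26 (SE, adjusted p = 0.24) under time-restricted and -3.43 ± 0.29 (SE, adjusted p = 2.06e-08) under ad libitum feeding. The feeding difference in FAN mice was 2.86 ± 0.28 (SE, adjusted p = 1.12e-06) and the interaction 3.03 ± 0.38 (SE, adjusted p = 9.63e-05). Akr1c21, the most abundant member, showed little spread in FAN time-restricted kidneys. Akr1c21 had 1299.6, 1277, 1320.1 and 1299 CPM in FAN time-restricted kidneys and 323, 219, 569.7 and 423 CPM in FAN ad libitum kidneys. In vehicle kidneys Akr1c21 had 1647, 1468, 1553 and 1414 CPM under time-restricted and 1699, 1456, 1500.0 and 1558 CPM under ad libitum feeding. Its FAN time-restricted libraries lay just below the vehicle ones and far above the FAN ad libitum ones. Akr1c21 changed by -0.23 ± 0.20 (SE, adjusted p = 0.381) under time-restricted and -2.02 ± 0.21 (SE, adjusted p = 1.69e-07) under ad libitum feeding, with a feeding difference in FAN mice of 1.76 ± 0.21 (SE, adjusted p = 5.69e-06) and an interaction of 1.79 ± 0.28 (SE, adjusted p = 5.81e-04).

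Akr1d1, the 5-beta reductase of bile acid and steroid metabolism, fell, with log2 changes of -0.77 ± 0.26 (SE, adjusted p = 0.0216) and -2.71 ± 0.27 (SE, adjusted p = 1.52e-07) under time-restricted and ad libitum feeding. Akr1c12, Akr1c19 and Akr1c20 passed neither FAN contrast, and Akr1c13 fell, with a log2 change of -0.54 ± 0.22 (SE, adjusted p = 0.0433) under ad libitum feeding. Akr1c12 and Akr1c13 share 28.6% and 24.2% of their windows with each other, so their separate values are uncertain.

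The 3-beta steroid dehydrogenases, which convert pregnenolone-type steroids, had 4 of 9 members tested. All 4 fell under ad libitum feeding, as did 28.6% of all genes. All 4 also rose with time-restricted feeding in FAN mice, as did 17.9% of all genes. Through the shared windows given below, the 4 may not be separate observations. Hsd3b8, 1 of the 4, was near the floor, with 0.123 to 0.434 CPM in FAN ad libitum and 0.386 to 1.05 CPM in vehicle ad libitum libraries. These ranges overlapped. Hsd3b8 may have passed the filter through the groups where it was higher, so its calls are the least certain of the 4. Hsd3b3 (chromosome 3, 98741523 to 98763127, minus strand, GRCm38) had the clearest separation. Hsd3b3 had 94.5, 76.1, 93.5 and 89.3 CPM in FAN time-restricted kidneys and 31.5, 20.9, 24.3 and 24.7 CPM in FAN ad libitum kidneys. In vehicle kidneys Hsd3b3 had 167, 119.9, 157 and 155 CPM under time-restricted and 186, 170.4, 160.5 and 185 CPM under ad libitum feeding. FAN ad libitum libraries lay below the FAN time-restricted ones, and both below all vehicle libraries. It fell, with log2 changes of -0.76 ± 0.13 (SE, adjusted p = 1.68e-04) under time-restricted and -2.79 ± 0.14 (SE, adjusted p = 9.10e-11) under ad libitum feeding. The feeding difference in FAN mice was 1.80 ± 0.14 (SE, adjusted p = 1.13e-07) and the interaction 2.03 ± 0.19 (SE, adjusted p = 9.46e-06).

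Hsd3b2 shares 25.1% of its windows with other genes of the cluster and is less certain. Hsd3b2 had 85.6, 58.2, 58.4 and 89 CPM in FAN time-restricted kidneys and 15.2, 10.7, 35.9 and 11.7 CPM in FAN ad libitum kidneys. In vehicle kidneys Hsd3b2 had 251, 135, 158 and 156 CPM under time-restricted and 123, 114, 186 and 138 CPM under ad libitum feeding. All FAN libraries were below all vehicle libraries. The changes after FAN were -1.27 ± 0.33 (SE, adjusted p = 0.00505) and -2.94 ± 0.35 (SE, adjusted p = 1.78e-06) under time-restricted and ad libitum feeding, and the feeding difference in FAN mice was 1.995 ± 0.34 (SE, adjusted p = 3.35e-04). Its interaction, 1.67 ± 0.46 (SE, adjusted p = 0.0305), was lost in 10 of the 16 fits that left out 1 library, all but those without FAN time-restricted 10 or 11, FAN ad libitum 10, vehicle time-restricted 1 or vehicle ad libitum 1 or 2. Hsd3b8 shares 97.5% of its windows with Hsd3b4, and Hsd3b9 shares 75.8% of its windows with Hsd3b8, so that their values cannot be assigned to a single gene. Hsd3b4 and Hsd3b7 are listed at 0 in all 16 libraries. Of the windows of Hsd3b4, 100% are shared with Hsd3b8, and 50.7% of those of Hsd3b7 are shared with Gm49388. Hsd3b1, Hsd3b5 and Hsd3b6 were at most 0.186 CPM in any library.

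Of the 11-beta and 17-beta dehydrogenases, 8 of 11 were tested, 7 of which fell under ad libitum and 5 under time-restricted feeding. The shares over all genes were 28.6% and 19%. Hsd11b1, which regenerates active glucocorticoid, fell under both regimens. Hsd11b1 had 122, 96, 76 and 196 CPM in FAN time-restricted kidneys and 46.5, 48.9, 106 and 70.3 CPM in FAN ad libitum kidneys. In vehicle kidneys Hsd11b1 had 255, 306, 221 and 526 CPM under time-restricted and 153, 301, 234 and 284 CPM under ad libitum feeding. FAN libraries lay below the vehicle ones of their regimen. Hsd11b1 changed by -1.42 ± 0.34 (SE, adjusted p = 0.00321) under time-restricted and -1.84 ± 0.35 (SE, adjusted p = 2.24e-04) under ad libitum feeding. Its feeding difference in FAN mice, 0.85 ± 0.34 (SE, adjusted p = 0.0664), did not pass, and passed without FAN time-restricted 11, FAN ad libitum 10 or vehicle time-restricted 4.

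Hsd17b11, Hsd17b2 and Hsd17b10 fell under both regimens and were higher with time-restricted feeding in FAN mice. Hsd17b11 had 348, 297, 254 and 375 CPM in FAN time-restricted kidneys and 104, 109, 92.8 and 82.2 CPM in FAN ad libitum kidneys. In vehicle kidneys Hsd17b11 had 665, 447, 428 and 632 CPM under time-restricted and 374, 425, 436 and 373 CPM under ad libitum feeding. Hsd17b11, a lipid droplet enzyme, separated the FAN groups from each other and from the vehicle group of their regimen. Its changes after FAN were -0.77 ± 0.16 (SE, adjusted p = 9.52e-04) and -2.05 ± 0.17 (SE, adjusted p = 1.10e-08) under time-restricted and ad libitum feeding, with an interaction of 1.28 ± 0.23 (SE, adjusted p = 0.00149). Hsd17b2 had 17.3, 23.3, 19.8 and 18.4 CPM in FAN time-restricted kidneys and 7.67, 5.66, 4.97 and 6.4 CPM in FAN ad libitum kidneys. In vehicle kidneys Hsd17b2 had 30.6, 43.2, 34.2 and 34 CPM under time-restricted and 20.5, 32.1, 37.3 and 39.3 CPM under ad libitum feeding. Hsd17b2, which inactivates estradiol and testosterone, was lowest in FAN ad libitum kidneys. Its changes after FAN were -0.85 ± 0.18 (SE, adjusted p = 0.00112) under time-restricted and -2.38 ± 0.19 (SE, adjusted p = 8.85e-09) under ad libitum feeding, with an interaction of 1.53 ± 0.26 (SE, adjusted p = 9.87e-04). Hsd17b10 had 110.2, 119, 135 and 113 CPM in FAN time-restricted kidneys and 58.1, 54.5, 84.3 and 64.9 CPM in FAN ad libitum kidneys. In vehicle kidneys Hsd17b10 had 186, 175, 197 and 169.9 CPM under time-restricted and 167, 174, 176 and 186 CPM under ad libitum feeding. Hsd17b10, a mitochondrial enzyme of isoleucine breakdown, had no overlap between FAN and vehicle. Hsd17b10 changed by -0.61 ± 0.13 (SE, adjusted p = 7.35e-04) under time-restricted and -1.43 ± 0.13 (SE, adjusted p = 3.16e-08) under ad libitum feeding, with an interaction of 0.81 ± 0.18 (SE, adjusted p = 0.00687).

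**Figure D5:**
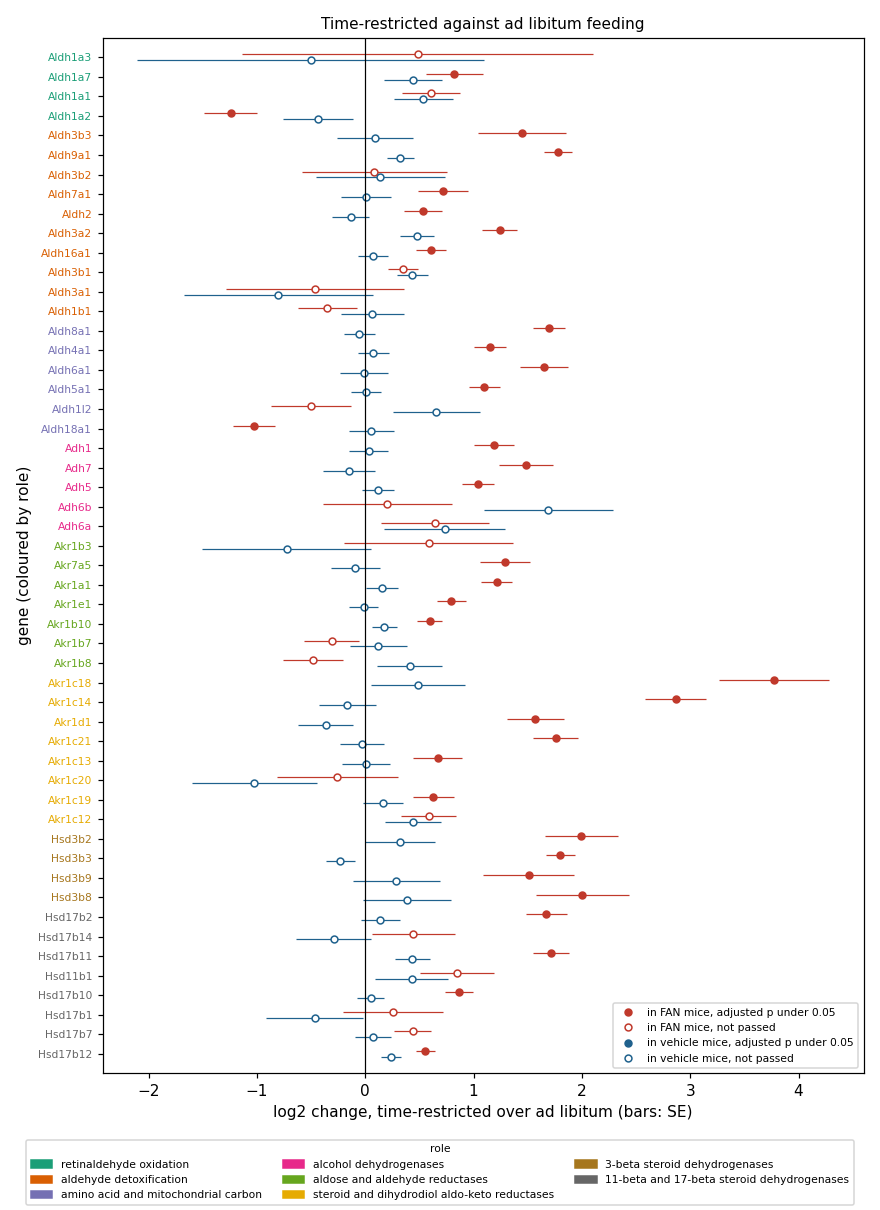
Points give the log2 change, time-restricted over ad libitum, of the 52 tested members with standard errors in FAN and in vehicle mice, and filled points passed an adjusted p of 0.05. In FAN mice 32 filled points lie right of 0 and 2 left of it, and in vehicle mice no point is filled.

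The other 11 members did not pass the filter: Hsd17b13, Hsd17b3, Hsd17b6, Hsd3b1, Hsd3b4, Hsd3b5, Hsd3b6, Hsd3b7, Adh4, Akr1c6 and Akr1cl. Akr1cl was also listed at 0 in all 16 libraries. Akr1c6, a 17-beta hydroxysteroid dehydrogenase of mouse liver, had 0.272, 0.0875, 0.118 and 0.372 CPM in FAN time-restricted and 0, 0.041, 0 and 0 CPM in FAN ad libitum kidneys. In vehicle kidneys Akr1c6 had 0.127, 0.496, 0.18 and 0.733 CPM under time-restricted and 0.37, 0.245, 0.384 and 0.757 CPM under ad libitum feeding.

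Related enzymes outside the naming rule were read from 3 fixed lists. Of 26 carbonyl reductases and short-chain dehydrogenases tested, 17 fell and 5 rose after FAN under ad libitum feeding. Under time-restricted feeding 12 fell and 5 rose, and 13 rose with time-restricted feeding in FAN mice. Of all genes, 28.6% fell and 32.1% rose under ad libitum feeding, and 19% fell and 24.5% rose under time-restricted feeding. In FAN mice 17.9% of all genes rose with time-restricted feeding. Sord, sorbitol dehydrogenase, changed by -0.54 ± 0.18 (SE, adjusted p = 0.0203) and -2.15 ± 0.18 (SE, adjusted p = 1.81e-08) after FAN under time-restricted and ad libitum feeding. Dcxr, xylulose reductase, changed by -1.41 ± 0.19 (SE, adjusted p = 1.09e-05) under time-restricted and -2.79 ± 0.20 (SE, adjusted p = 1.86e-09) under ad libitum feeding. Rdh10, which makes retinaldehyde from retinol, rose by 1.06 ± 0.13 (SE, adjusted p = 5.35e-06) under time-restricted and 0.78 ± 0.13 (SE, adjusted p = 4.97e-05) under ad libitum feeding.

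Of 11 retinoid partners tested, 3 rose and 2 fell under ad libitum feeding, where 32.1% of all genes were higher and 28.6% lower. Under time-restricted feeding 1 rose and 1 fell, against 24.5% and 19% of all genes, so no share of the list was above that of all genes. Rarb, a retinoic acid receptor, rose by 1.46 ± 0.47 (SE, adjusted p = 0.0115) under ad libitum feeding. Of 7 steroid partners tested, 4 fell and 1 rose under ad libitum feeding, where 28.6% of all genes fell and 32.1% rose. Under time-restricted feeding 2 fell and 1 rose, against 19% and 24.5% of all genes. Srd5a2, a testosterone 5-alpha reductase, fell, with log2 changes of -2.24 ± 0.41 (SE, adjusted p = 3.37e-04) under time-restricted and -3.40 ± 0.43 (SE, adjusted p = 3.46e-06) under ad libitum feeding. Of the 6 adrenal cortex markers, Cyp11a1, Cyp11b1, Cyp11b2 and Cyp21a1 did not pass the filter. Star, the cholesterol transporter, was tested and passed neither FAN contrast (adjusted p = 0.392 under time-restricted and 0.443 under ad libitum feeding). Mc2r, the corticotropin receptor, had 0.0929 to 0.661 CPM in FAN time-restricted, 1.48 to 2.63 CPM in FAN ad libitum, 0 to 0.570 CPM in vehicle time-restricted and 0 to 0.0672 CPM in vehicle ad libitum libraries. It was called higher after FAN under ad libitum feeding (adjusted p = 5.15e-06) and lower with time-restricted feeding in FAN mice (adjusted p = 0.00507), and its interaction was negative (adjusted p = 0.0125). Outside FAN ad libitum kidneys Mc2r reached at most 0.661 CPM, so it may have passed the filter through that group alone. These calls are therefore a description and no independent evidence. With some vehicle libraries at 0, no fold is given for Mc2r, and its part in the values of the steroid enzymes was not tested.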

How the data were processed

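Kidney RNA of 16 libraries, 4 in each combination of FAN or vehicle with time-restricted or ad libitum feeding, was extracted with TRIzol and made into stranded poly(A) libraries, per the labels' protocols. A single table of raw counts by Ensembl identifier, deposited by the authors, was analysed. The submitters' processing notes name STAR 2.5.3a, FastQC 0.11.5, the build mm10 and edgeR 3.26.7. How reads were assigned to genes, and with which strand setting, is not given in the sources used here, so overlapping and antisense genes could share reads. Column numbers name the libraries, and FAN columns could be tied to a group but not to a sample title.

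Members and lists were chosen with earlier results of these data known. The fit used edgeR 4.0.16 (R 4.3.3), with filterByExpr by group (minimum count 10, leaving 17731 genes), TMM scaling, and 1 robust quasi-likelihood model of all 16 libraries in 4 groups. Two-sided p were adjusted by Benjamini-Hochberg across the 17731 genes and called at 0.05, and CPM are TMM-scaled. Standard errors were derived from that model's test, as the absolute log2 change divided by the square root of its F statistic. On simulated counts for FAN against vehicle under ad libitum feeding with 17590 genes, 99% of genes changed by 2 and 77% of those changed by 1 on the log2 scale were recovered. All simulated libraries shared a common mean profile, apart from 100 genes of each size, equally many raised and lowered. In the data 60.7% of genes were called in this contrast, so the simulation checks the code and its rates need not hold here. Replicates of a group differed by a chi-square of at least 18.4 per gene. Values are listed by library number: 6, 10, 11 and 12 in FAN time-restricted, 6, 7, 10 and 12 in FAN ad libitum, and 1 to 4 in vehicle groups. Level ranks used CPM per kilobase of GENCODE M21 exons. Shared windows are the share of a gene's 50-base exon windows found in another gene. Coordinates are from GENCODE M21 on GRCm38, the assembly of mm10. Only 2.81% of the gene starts in the deposited table equal those of M21, so the table's own coordinates, whose build is not stated, were not used. For a count of 0 an upper limit of 3 counts was taken, which covers counting error only. Alternatives were library size and RLE scaling, other filters, DESeq2 1.42.0, limma 3.58.1 voom, S number as a covariate, and leaving out each library. Genes described in full were a fixed roster by role, and in each contrast the 4 largest passing changes each way among members with no overlap of groups and a mean CPM of 5 or more, and up to 6 members by interaction p.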

Additional observations from a re-analysis of the deposited data

Results flagged for a closer look

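Among 124 sets of 4 libraries of the members described in full, 15 held a library far from the other 3 by Dixon's test at the 95% level, where chance gives about 1 in 20. In FAN time-restricted kidneys library 12 was the highest for Aldh1a3 (117.7 CPM), Akr1b3 (258 CPM) and Aldh8a1 (393 CPM) and the lowest for Aldh18a1 (4.46 CPM). In FAN ad libitum kidneys library 7 was the highest for Aldh1a3 (78.5 CPM) and Akr1b3 (126 CPM), and library 10 for Akr1c18 (3.86 CPM). In vehicle time-restricted kidneys library 1 was the highest for Adh7 (14.4 CPM), library 2 for Akr1b8 (14.4 CPM), and library 3 was the lowest for Aldh1a2 (1.08 CPM). In vehicle ad libitum kidneys library 1 was the lowest for Adh1 (772 CPM) and Akr1c18 (11.3 CPM), library 3 the lowest for Aldh5a1 (51.9 CPM), and library 4 the highest for Aldh3a2 (247 CPM) and Aldh8a1 (672 CPM).

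For 22 members the feeding difference in FAN mice was not the one in vehicle mice by edgeR's interaction test. The interaction, on the log2 scale, was 3.28 for Akr1c18, 3.03 for Akr1c14, 2.03 for Hsd3b3, 1.94 for Akr1d1, 1.79 for Akr1c21, 1.75 for Aldh8a1 and 1.67 for Hsd3b2. It was 1.66 for Aldh6a1, 1.63 for Adh7, 1.53 for Hsd17b2, 1.46 for Aldh9a1, 1.38 for Akr7a5, 1.28 for Hsd17b11 and 1.16 for Adh1. The remaining values were 1.09 for Aldh5a1, 1.08 for Aldh4a1, 1.06 for Akr1a1, 0.93 for Adh5, 0.81 for Hsd17b10, 0.81 for Akr1e1, 0.76 for Aldh3a2 and -1.08 for Aldh18a1.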

How the results depend on the processing

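Counts of members moved by more than 1.5 times as follows. Under library size scaling 11 members were higher after FAN with ad libitum feeding, 21 were higher and 6 lower with time-restricted feeding in FAN mice, and the interaction called 12 positive and 5 negative. Under limma voom 4 were lower with time-restricted feeding in FAN mice and 2 had a negative interaction. In the early set alone 2 were higher and 13 lower after FAN under time-restricted feeding, and 0 had a negative interaction. Without FAN ad libitum 6 and 7 4 were higher after FAN under ad libitum feeding and 0 had a negative interaction, and without FAN ad libitum 10 and 12 2 had a negative interaction. These last settings were chosen after seeing the data.

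Leaving out 1 library gave, for FAN under ad libitum feeding, 6 to 8 higher and 33 to 36 lower. For FAN under time-restricted feeding it gave 4 to 6 higher and 19 to 23 lower, and for feeding in FAN mice 30 to 33 higher and 2 to 2 lower. Feeding in vehicle mice gave 0 to 0 in either direction, and the interaction 19 to 23 positive and 0 to 2 negative. In the early set alone the log2 change turned to -0.10 for Aldh1a1 and -0.083 for Aldh1a7 after FAN under time-restricted feeding, and to -0.012 for Aldh7a1 between regimens in FAN mice. Under library size scaling that of Aldh2 between regimens in FAN mice turned to -0.13. The cause was not tested.

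Vehicle libraries with the same title number correlated in their deviations at 0.18 and 0.12 for numbers 1 and 2, and at -0.15 and -0.01 for numbers 3 and 4. Not every pair was above 0.1, so the numbers were not taken as pairs. With a replicate block 0 members and 0 of 15819 genes were called for feeding in vehicle mice, against 1 gene in the same libraries with no replicate block. Column numbers 6, 10 and 12 occur in both FAN groups, with correlations of -0.13, -0.05 and -0.25, so they were not taken as pairs either. A replicate block of these numbers in the FAN libraries, chosen after seeing the data, called 23 members higher and 2 lower with time-restricted feeding, against 29 and 3 in the same libraries without it. Over all genes it called 1481 higher and 855 lower, against 2518 and 2126. Members under about 1 CPM, and those sharing windows, are the least certain.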
